A study of Mus musculus with 12 samples.

Results

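Mitochondria are kept as a network by the opposing activities of fusion and fission, and damaged parts of the network are handed to the autophagosome by mitophagy. The genes examined here are 10 core components of that system, taken by gene name from the 54345 genes of the deposited expression table: the fusion GTPases Mfn1, Mfn2 and Opa1, the fission factors Dnm1l, Fis1 and Mff, and the mitophagy genes Pink1, Bnip3, Bnip3l and Fundc1. The rule that picked them used gene names and no measured value. All 10 were among the 25044 genes tested, a gene being tested when its level was above 0 in at least 3 libraries.

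The study asked whether magnesium hexacyanoferrate nanocatalysts (MgHCF) protect cardiac muscle-type cells from doxorubicin, an anthracycline that is used against cancer and injures the heart. H9c2(2-1) cells, an established line that the labels call myoblast and WT in genotype, were treated for 6 h, and poly(A) RNA was sequenced in 12 libraries. The Unt group was untreated, the DOX group received doxorubicin, the D_MgHCF group doxorubicin with MgHCF, and the D_DXZ group doxorubicin with dexrazoxane, the iron chelator given in the clinic to protect the heart. Each group had 3 libraries. Doxorubicin is thus shared by DOX, D_DXZ and D_MgHCF, and no library had MgHCF or dexrazoxane without it. The labels do not say whether the libraries of a group came from separate cultures, so the p-values measure the spread between these libraries, which may be technical.

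In fusion, the mitofusins Mfn1 and Mfn2 join the outer membranes of neighbouring mitochondria and Opa1 joins the inner membranes and shapes the cristae. In fission, Fis1 and Mff sit on the outer membrane, where Mff and other receptors recruit the cytosolic dynamin Drp1, the product of Dnm1l, which constricts the organelle. Mitophagy is marked either by the kinase Pink1, which builds up on depolarised mitochondria and activates the ubiquitin ligase parkin, or by the outer membrane receptors Bnip3, Bnip3l (NIX) and Fundc1, which bind LC3 on the autophagosome directly.

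Levels are given as FPKM, a depth-scaled number of fragments per kilobase of gene length, which takes length out of comparisons between genes. The study describes the cells as rat, while the genes and their lengths are mouse. Whether the reads of each gene were recovered alike was not tested, so levels of different genes are set side by side with that limit. The libraries held 16626514 to 19365119 reads on genes, recovered from the steps of the FPKM values, and each of the 10 genes had at least 331 reads in every library. Pearson correlations of log2(FPKM + 1) between libraries of a group were at least 0.989 in Unt, DOX and D_DXZ but 0.942 to 0.984 in D_MgHCF. The deposited values carry a median-ratio scaling, and this factor over the summed reads lay between 1.31 and 1.37 in Unt, between 1.25 and 1.42 in D_MgHCF, between 0.642 and 0.778 in DOX and between 0.742 and 0.885 in D_DXZ. Rescaling the libraries to TPM, which gives each the same total per-length signal, moved the median log2 fold change of the 11515 genes with a mean FPKM of at least 1 from 0.05 to −1.18 in DOX against Unt and from −0.09 to 0.99 in D_MgHCF against DOX. Dividing by the summed reads gave −0.69 and 0.67. Where this choice turned a direction, the value is given beside the result. The share of reads on mitochondrially encoded genes ranged over 1.19 to 1.42% for Unt, 2.73 to 2.89% for DOX, 2.73 to 3.27% for D_DXZ and 1.76 to 3.16% for D_MgHCF, and its part in the results was not tested.

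Among 7 markers of skeletal myoblasts only Vim had a mean FPKM of at least 1. Des reached at most 1.57 FPKM, and Myod1, Myf5, Myog and Pax7 were at or near 0 in all libraries. Of 8 cardiomyocyte markers only Gata4 reached that level, and of 5 fibroblast markers Col1a1, Col1a2 and Col3a1 did. The markers therefore do not single out the labelled type. The summed level of the myoblast list, nearly all of it Vim, was 222 to 270 FPKM for Unt, 871 to 1137 for DOX, 694 to 879 for D_DXZ and 95.9 to 158 for D_MgHCF. Des was lower in DOX than in Unt (0.552 against 1.46 FPKM, adjusted p = 0.0055). The summed cardiomyocyte list, most of it Gata4, was 10.8 to 12.1 FPKM for Unt, 3.45 to 6.10 for DOX, 3.45 to 4.80 for D_DXZ and 16 to 26.8 for D_MgHCF, while Tnnt2 was higher in DOX (0.903 against 0.133 FPKM in Unt, adjusted p = 3.95e-05). The summed fibroblast list was 60.9 to 66.6 FPKM for Unt, 140 to 177 for DOX, 108 to 152 for D_DXZ and 30.4 to 63.8 for D_MgHCF, and Pdgfra within it was lower in DOX (0.352 against 0.718 FPKM, adjusted p = 0.0095). All 4 endothelial and all 3 epithelial markers stayed under a mean of 1 FPKM, and of 4 macrophage markers Cd68 alone exceeded it. Their low sums moved with the groups: the epithelial sum was 0.0091 to 0.020 FPKM for Unt, 0.173 to 0.233 for DOX, 0.032 to 0.201 for D_DXZ and 0.311 to 1.37 for D_MgHCF. The endothelial sum was at most 0.200 FPKM outside D_MgHCF and 0.263 to 1.08 in it. The macrophage sum was 0.888 to 1.12 FPKM for Unt, 2.89 to 3.60 for DOX, 3.82 to 4.37 for D_DXZ and 2.00 to 4.98 for D_MgHCF. Krt8, Cdh1, Pecam1 and Cd68 were called higher in D_MgHCF than in Unt (adjusted p = 0.00686, 0.0122, 0.0251 and 0.00359). Individual markers are named here after their values were seen. The part of these markers in the results was not tested, and in bulk RNA fewer cells of a type and less RNA per cell cannot be told apart.

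In DOX, 7 of the 10 genes were higher than in Unt and none was lower, with Fis1 at 4.74 times its Unt mean, Fundc1 at 3.63, Bnip3l at 3.57 and Pink1 at 3.12 times. Genes were called at a Benjamini-Hochberg adjusted p under 0.05 over all genes tested (limma on log2(FPKM + 1)). Over all genes tested, 18.6% were called higher and 19.9% lower in this comparison, and among the genes with a mean FPKM of at least 1, as all 10 are, 36.7% and 33.3%. Under TPM the split of the 10 genes was 3 higher and 6 lower, and over the summed reads 4 higher and 5 lower, so the higher calls that did not depend on the scaling were those of Fis1, Bnip3l and Fundc1. For this and the other comparisons, no share of all genes called was computed under these scalings. The median of the genes with a mean FPKM of at least 1 moved here to −1.18 and −0.69. The median log2 fold change of the 10 was 0.61 in the deposited values, against about 0 over all genes tested.

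In D_DXZ against Unt, 6 of the 10 genes were higher and none lower, where 15.9% of all genes tested were higher and 18% lower, and among those with a mean FPKM of at least 1, 31.9% and 31.5%. Under TPM 2 were higher and 6 lower, and over the summed reads 4 and 5. This comparison shares the Unt libraries with that of DOX. Directly against DOX, no gene of the 10 was called in D_DXZ by limma, and none had an unadjusted p under 0.05. Over all genes tested the shares called at the adjusted threshold were 0% in the higher and 0% in the lower direction, the smallest adjusted p of any gene was 0.087, and 4.56% were higher and 4.97% lower at an unadjusted p under 0.05. The log2 fold changes of the 10 genes ran from −0.32 to −0.02, all below 0 in the deposited values, but 3 of them, those of Mfn1, Opa1 and Dnm1l, were above 0 under TPM and over the summed reads, and those of Mfn1, Dnm1l and Fis1 under quantile normalization.

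With MgHCF added to doxorubicin, 7 of the 10 genes were lower than in DOX and none was higher. Fis1, Bnip3l and Fundc1 were at 0.285, 0.298 and 0.290 times their DOX means, in the range of the Unt libraries or overlapping it, while Dnm1l at 0.331 times was below Unt too. Over all genes tested, 20.1% were called lower and 31.4% higher, and among the genes with a mean FPKM of at least 1, 40.1% and 33.5%. Under TPM, and also over the summed reads, the split was 3 higher and 4 lower, and Fis1, Bnip3l, Fundc1 and Dnm1l were called lower under every scaling. The median of the 10 was −0.87, against 0.07 over all genes tested and −0.09 over those with a mean FPKM of at least 1. Genes above 0 numbered 23368 to 25456 in the D_MgHCF libraries and 18530 to 20660 in the others. The part of this in the shares over all genes tested was not tested. Against D_DXZ, 6 were lower and 1 higher in D_MgHCF, where 19% of all genes tested were lower and 29.4% higher, and of those with a mean FPKM of at least 1, 38% and 30.4%. Under TPM and over the summed reads 4 were lower and 3 higher. Against Unt, Pink1 and Bnip3 were higher and Mfn1, Opa1 and Dnm1l lower in D_MgHCF, where 24.3% of all genes tested were higher and 15.7% lower. Among those with a mean FPKM of at least 1 the shares were 22.5% and 29%, so the counts of 2 and 3 of 10 are near the background, and under TPM the split was 1 higher and 3 lower. These comparisons share their D_MgHCF libraries.

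**Figure D1:**
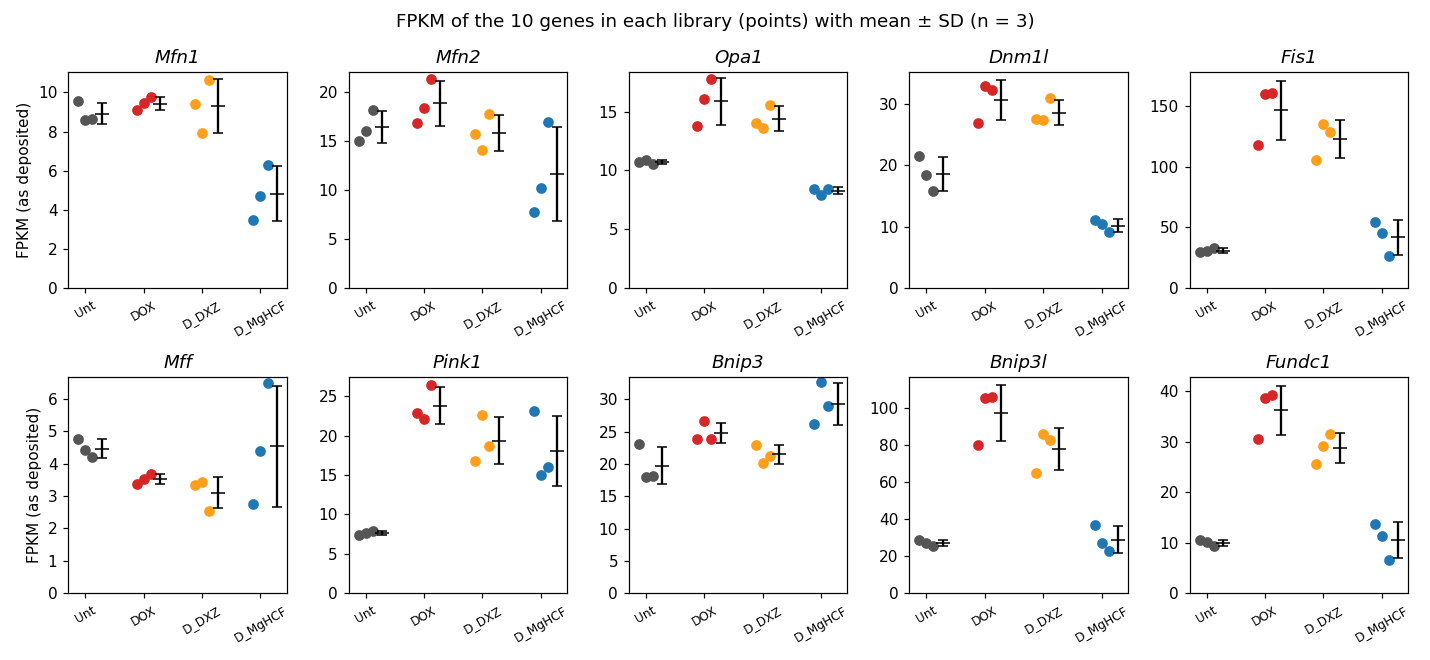
Deposited FPKM (linear axes from 0) of each of the 10 genes in the 12 libraries, with each library as a point and the group mean ± SD (n = 3) as a black bar beside it. Fis1, Bnip3l and Fundc1 are high in DOX and D_DXZ and near the Unt level in D_MgHCF, Pink1 is above all Unt libraries in the other 3 groups, Bnip3 has its highest mean in D_MgHCF, and the D_MgHCF points of Mfn2 and Mff are the most spread. The heights hold for the deposited scaling: under TPM or over the summed reads the DOX estimates of Mfn1, Mfn2, Opa1, Dnm1l and Bnip3 were below Unt.

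**Figure D2:**
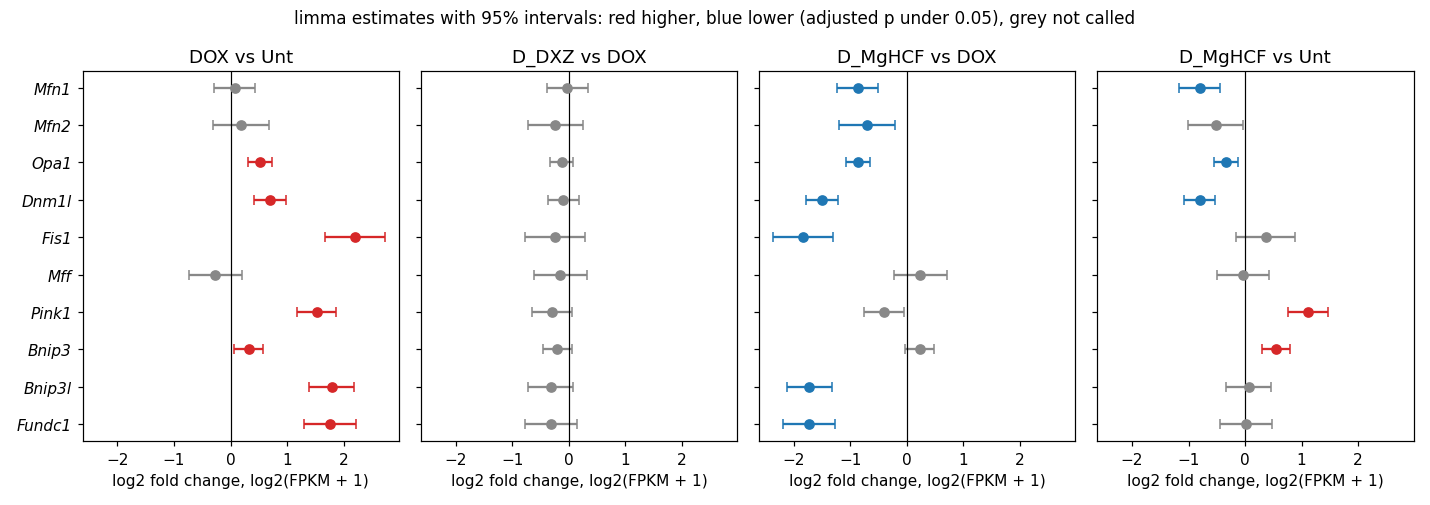
The limma log2 fold change of each gene with its 95% interval in 4 comparisons on log2(FPKM + 1), with red for called higher, blue for called lower and grey for not called. All 10 intervals cross 0 for D_DXZ against DOX, and for D_MgHCF against DOX 8 lie below 0, of which 7 are called and that of Pink1 is not. The positions rest on the deposited scaling: under TPM the direction turned for Mfn1, Mfn2, Opa1, Dnm1l and Bnip3 in DOX against Unt and for Mfn1, Mfn2, Opa1 and Pink1 in D_MgHCF against DOX.

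Mfn1 (chromosome 3, 32529465 to 32579239, plus strand, GRCm38), the mitofusin that tethers opposing outer membranes, had 9.54, 8.58 and 8.61 FPKM in the 3 Unt libraries, 9.10, 9.43 and 9.74 in DOX, 9.42, 7.90 and 10.6 in D_DXZ and 3.46, 4.68 and 6.28 in D_MgHCF. The D_MgHCF libraries were all below every other library, and the other 3 groups overlapped one another. The log2 fold change in D_MgHCF was −0.87 ± 0.16 (SE) against DOX (adjusted p = 0.00123) and −0.80 ± 0.16 against Unt (adjusted p = 0.00364). The difference from DOX was 0.20 (adjusted p = 0.517) under TPM and −0.03 (adjusted p = 0.912) over the summed reads, whereas that from Unt was called and negative under every scaling. In DOX against Unt the change was 0.07 with a 95% interval from −0.29 to 0.44, but −1.24 (adjusted p = 0.00203) under TPM and −0.78 (adjusted p = 0.00842) over the summed reads. D_DXZ against Unt turned likewise, from 0.05 to −1.09 and −0.64.

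Mfn2 (chromosome 4, 147873599 to 147904704, minus strand), the second mitofusin, which also links mitochondria to the endoplasmic reticulum, had 15.0, 16 and 18.2 FPKM in Unt, 16.8, 18.3 and 21.3 in DOX, 15.7, 14.1 and 17.7 in D_DXZ and 7.74, 10.2 and 17.0 in D_MgHCF. The third D_MgHCF library lay within the range of the other groups and 2.19 times above the lowest of its own group. Against DOX the log2 fold change in D_MgHCF was −0.71 ± 0.22 (adjusted p = 0.0212), but it was 0.45 (adjusted p = 0.207) under TPM and 0.20 (adjusted p = 0.503) over the summed reads. The call was lost without DOX library 3, D_MgHCF library 1 or D_MgHCF library 2 (adjusted p = 0.0754, 0.0711 and 0.0662). Quantile normalization lost it too (−0.42, adjusted p = 0.19), as did a fit of the 2 groups alone (adjusted p = 0.0928) and a fit with no filter (adjusted p = 0.0651). Without D_MgHCF library 3, Mfn2 was lower than in Unt by a log2 fold change of −0.81 (adjusted p = 0.00123), where with all libraries the change was −0.52 (adjusted p = 0.0842). Without that library it was also called lower than in D_DXZ, at −0.76 (adjusted p = 0.0015), against −0.47 (adjusted p = 0.102) with it. With all libraries this difference from D_DXZ was 0.52 (adjusted p = 0.154) under TPM and 0.25 (adjusted p = 0.396) over the summed reads. In DOX against Unt it was 0.19 with a 95% interval from −0.30 to 0.68, but −1.15 (adjusted p = 0.00728) under TPM, −0.71 (adjusted p = 0.037) over the summed reads and −0.16 (adjusted p = 0.669) under quantile normalization.

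Opa1 (chromosome 16, 29579334 to 29654884, plus strand), the dynamin-related GTPase of the inner membrane, had 10.7, 10.9 and 10.6 FPKM in Unt, 13.8, 16.1 and 17.8 in DOX, 14.0, 13.6 and 15.6 in D_DXZ and 8.41, 7.93 and 8.45 in D_MgHCF. DOX and D_DXZ were above Unt without overlap, and D_MgHCF was below it without overlap. In DOX the log2 fold change was 0.52 ± 0.09 (adjusted p = 0.00123), but −0.79 (adjusted p = 0.000231) under TPM and −0.37 (adjusted p = 0.00411) over the summed reads. For D_DXZ against Unt the 3 values were 0.39, −0.75 and −0.32. Relative to DOX it was −0.86 ± 0.09 in D_MgHCF (adjusted p = 4.25e-05), but 0.28 (adjusted p = 0.0671) under TPM and 0.033 (adjusted p = 0.748) over the summed reads. The change of −0.34 in D_MgHCF against Unt (adjusted p = 0.0166) was negative and called under every scaling, with an adjusted p of 0.0502 without Unt library 1, 0.0559 without Unt library 2 and 0.0521 without D_MgHCF library 2.

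Dnm1l (chromosome 16, 16312230 to 16358959, minus strand), the fission dynamin, had 21.4, 18.4 and 15.8 FPKM in Unt, 26.8, 32.8 and 32.2 in DOX, 27.5, 27.3 and 30.9 in D_DXZ and 11, 10.4 and 9.04 in D_MgHCF. Here too the D_MgHCF libraries were the lowest of all and the DOX and D_DXZ libraries were all above Unt. The log2 fold change in D_MgHCF was −1.50 ± 0.12 against DOX (adjusted p = 9.1e-06) and −0.80 ± 0.12 against Unt (adjusted p = 0.0008). Both stayed negative and called under every scaling, that against DOX at −0.37 (adjusted p = 0.031) under TPM. The rise in DOX over Unt, 0.70 ± 0.12 (adjusted p = 0.00101), turned to −0.63 (adjusted p = 0.00197) under TPM and −0.21 (adjusted p = 0.202) over the summed reads, and was 0.15 (adjusted p = 0.535) under quantile normalization. D_DXZ against Unt was 0.61 as deposited, −0.55 under TPM and −0.13 over the summed reads.

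Fis1 (chromosome 5, 136953275 to 136966234, plus strand), a small tail-anchored protein of the outer membrane, was the most abundant of the 10 in DOX. The first listed of its 2 RefSeq starts is shown by the 220 bases from positions −250 to −31 (GRCm38.p6, plus strand, chr5:136953025-136953244), since Fis1 rose most with doxorubicin, and capitals mark CCAAT and GGGCGG on either strand.

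Fis1: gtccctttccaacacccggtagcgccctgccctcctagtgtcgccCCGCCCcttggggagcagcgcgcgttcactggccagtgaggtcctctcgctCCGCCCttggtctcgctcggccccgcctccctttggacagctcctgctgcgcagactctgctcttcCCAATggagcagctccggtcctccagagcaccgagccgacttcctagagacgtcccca

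This window held CCAAT at position −88 and GGGCGG, read on the other strand, at −205 and −154, and no ACGTG, the core of the hypoxia response element. These matches are descriptions of the mouse reference and not evidence of binding. The levels of Fis1 were 29.4, 30.3 and 33.1 FPKM in Unt, 118, 160 and 161 in DOX, 106, 136 and 129 in D_DXZ and 54.5, 45.0 and 26.0 in D_MgHCF. Every DOX and D_DXZ library lay above every Unt and D_MgHCF library, and D_MgHCF overlapped Unt. The log2 fold change in DOX was 2.20 ± 0.24 (adjusted p = 4.3e-05) and stayed positive and called under TPM (0.86, adjusted p = 0.000686) and over the summed reads (1.26, adjusted p = 0.000301). Relative to DOX, Fis1 in D_MgHCF was at −1.83 ± 0.24 (adjusted p = 0.000113), and −0.64 (adjusted p = 0.00414) under TPM. Against Unt the change in D_MgHCF was 0.36 (adjusted p = 0.248), with a 95% interval from −0.16 to 0.89, and without D_MgHCF library 3 it was 0.66 (adjusted p = 0.00677).

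Mff (chromosome 1, 82724890 to 82752394, plus strand), a receptor that recruits Drp1, had the lowest mean of the 10 in every group, with 4.77, 4.41 and 4.21 FPKM in Unt, 3.36, 3.53 and 3.67 in DOX, 3.33, 3.43 and 2.54 in D_DXZ and 2.76, 4.37 and 6.47 in D_MgHCF. All Unt libraries were above all DOX and D_DXZ libraries, and D_MgHCF overlapped each of the other 3 groups. No comparison was called in the deposited scaling. The log2 fold change in DOX against Unt was −0.27 (95% interval −0.74 to 0.19), but −1.56 (adjusted p = 0.00187) under TPM, −1.02 (adjusted p = 0.00668) over the summed reads and 0.16 (adjusted p = 0.664) under quantile normalization. It was called at the same −0.27 in a fit of these 2 groups alone (adjusted p = 0.0173), in which the wide D_MgHCF spread does not enter. In D_DXZ against Unt, −0.42, it was called without D_MgHCF library 1 (adjusted p = 0.0419) or 3 (adjusted p = 0.0392). Without D_MgHCF library 1, Mff was higher in D_MgHCF than in DOX by 0.49 (adjusted p = 0.0283) and than in D_DXZ by 0.63 (adjusted p = 0.00892), where with all libraries these were 0.24 (adjusted p = 0.372) and 0.38 (adjusted p = 0.157). Both were called under TPM, at 1.37 (adjusted p = 0.00367) and 1.38 (adjusted p = 0.00383), whereas quantile normalization gave −0.12 (adjusted p = 0.731) and 0.07 (adjusted p = 0.839).

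Pink1 (chromosome 4, 138313409 to 138326307, minus strand) and Bnip3 (chromosome 7, 138890836 to 138909519, minus strand) were the pair called higher in D_MgHCF than in Unt. The same stretch before their RefSeq starts is shown for both (GRCm38.p6, minus strand, chr4:138326327-138326546 and chr7:138909537-138909756), with capitals for matches on either strand to the hypoxia response core ACGTG, the CCAAT box and the GC box GGGCGG.

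Pink1: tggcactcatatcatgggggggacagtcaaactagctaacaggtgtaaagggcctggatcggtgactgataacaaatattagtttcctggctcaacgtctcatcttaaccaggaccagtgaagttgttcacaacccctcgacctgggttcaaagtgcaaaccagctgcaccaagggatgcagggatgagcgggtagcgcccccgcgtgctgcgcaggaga
Bnip3: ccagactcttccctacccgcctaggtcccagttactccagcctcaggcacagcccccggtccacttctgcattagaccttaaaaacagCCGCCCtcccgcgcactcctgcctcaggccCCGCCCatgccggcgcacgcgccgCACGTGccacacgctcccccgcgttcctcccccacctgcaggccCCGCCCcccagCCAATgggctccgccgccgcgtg

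The Bnip3 window held ACGTG on both strands at −108 and −107, the 2 matches overlapping as CACGTG, with CCAAT at −53 and GGGCGG on the other strand at −162, −132 and −64. The Pink1 window held none of the 3 motifs. In the windows of these 220 bases at the 32851 promoters of the table, 14.4% held ACGTG, 31% CCAAT and 28.5% GGGCGG. RefSeq promoters were matched for 9 of the 10 genes, all but Bnip3l. Of these, only Bnip3 and 1 of 3 starts of Mfn2 held ACGTG, and the Fundc1 window held none of the motifs.

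Pink1, the kinase that starts parkin-dependent mitophagy, had 7.36, 7.60 and 7.90 FPKM in Unt, 22.8, 22.1 and 26.5 in DOX, 16.8, 22.6 and 18.7 in D_DXZ and 23.1, 15.0 and 16 in D_MgHCF. All 9 doxorubicin-treated libraries were above the highest Unt library, and the 3 treated groups overlapped. Over Unt the log2 fold change was 1.52 ± 0.16 in DOX (adjusted p = 3.52e-05), 1.23 ± 0.16 in D_DXZ (adjusted p = 0.000224) and 1.12 ± 0.16 in D_MgHCF (adjusted p = 0.000456). Under TPM these were 0.26 (adjusted p = 0.107), 0.14 (adjusted p = 0.434) and 1.04 (adjusted p = 0.000106), so the rise in D_MgHCF alone was called under every scaling. Against DOX, D_MgHCF gave −0.40 (adjusted p = 0.0536), but 0.78 (adjusted p = 0.000276) under TPM, 0.52 (adjusted p = 0.00422) over the summed reads and 0.08 (adjusted p = 0.757) under quantile normalization. In the deposited scaling the fall was called without D_MgHCF library 1 (−0.59, adjusted p = 0.00356) or without D_DXZ library 2 (adjusted p = 0.0488).

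Bnip3, a receptor known as a target of the hypoxia-inducible factor, had 23.1, 18.0 and 18.2 FPKM in Unt, 23.9, 26.6 and 23.9 in DOX, 23.0, 20.1 and 21.3 in D_DXZ and 26.2, 32.6 and 28.9 in D_MgHCF. D_MgHCF was above Unt and D_DXZ without overlap, and its lowest library was just below the highest of DOX. The log2 fold change in D_MgHCF was 0.55 ± 0.11 against Unt (adjusted p = 0.00425), though 0.42 with an adjusted p of 0.0968 under TPM, and 0.43 ± 0.11 against D_DXZ (adjusted p = 0.0115). Against DOX it was 0.23 (adjusted p = 0.126), and 1.43 (adjusted p = 9.71e-05) under TPM, 1.16 (adjusted p = 0.000164) over the summed reads and 0.90 (adjusted p = 0.00121) under quantile normalization. The call of DOX over Unt, 0.32 ± 0.11 (adjusted p = 0.0482), had the largest adjusted p of the 7 calls. It turned to −1.01 (adjusted p = 0.00107) under TPM, −0.59 (adjusted p = 0.0127) over the summed reads and −0.19 (adjusted p = 0.429) under quantile normalization, and it was lost with voom on the recovered reads (adjusted p = 0.109). It was also lost without each of 8 libraries: Unt 2 and 3, and all 3 of DOX and of D_DXZ, at adjusted p from 0.0557 to 0.174. In D_DXZ against Unt Bnip3 was at 0.12 as deposited, −1.04 under TPM and −0.61 over the summed reads.

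Bnip3l (chromosome 14, 66985239 to 67008877, minus strand), the paralogue of Bnip3 known for clearing mitochondria from maturing red cells, had 28.8, 27.3 and 25.7 FPKM in Unt, 80.1, 106 and 106 in DOX, 65.1, 86.0 and 82.7 in D_DXZ and 37.0, 27.4 and 22.8 in D_MgHCF. Every DOX and D_DXZ library was above every Unt and D_MgHCF library, and the latter groups overlapped. Bnip3l changed by a log2 fold change of 1.79 ± 0.18 in DOX over Unt (adjusted p = 2.98e-05), and −1.73 ± 0.18 in D_MgHCF against DOX (adjusted p = 3.05e-05). Under TPM these were 0.46 (adjusted p = 0.00182) and −0.54 (adjusted p = 0.000539). Against Unt, D_MgHCF gave 0.06 with a 95% interval from −0.34 to 0.46.

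Fundc1 (chromosome X, 17556564 to 17572325, minus strand), an outer membrane receptor of hypoxia-induced mitophagy, had 10.5, 10.0 and 9.34 FPKM in Unt, 30.5, 38.7 and 39.2 in DOX, 25.6, 29.2 and 31.6 in D_DXZ and 13.6, 11.3 and 6.63 in D_MgHCF. Its groups fell apart as those of Fis1 and Bnip3l did, with D_MgHCF on both sides of the Unt range. Fundc1 changed by a log2 fold change of 1.75 ± 0.21 in DOX over Unt (adjusted p = 7.2e-05) and −1.74 ± 0.21 in D_MgHCF against DOX (adjusted p = 6.93e-05), and under TPM by 0.48 (adjusted p = 0.0247) and −0.61 (adjusted p = 0.00571). In D_DXZ over Unt it was 1.44 (adjusted p = 0.000408), and 0.33 (adjusted p = 0.112) under TPM. The interval of D_MgHCF against Unt was −0.44 to 0.48 around 0.02.

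**Figure D3:**
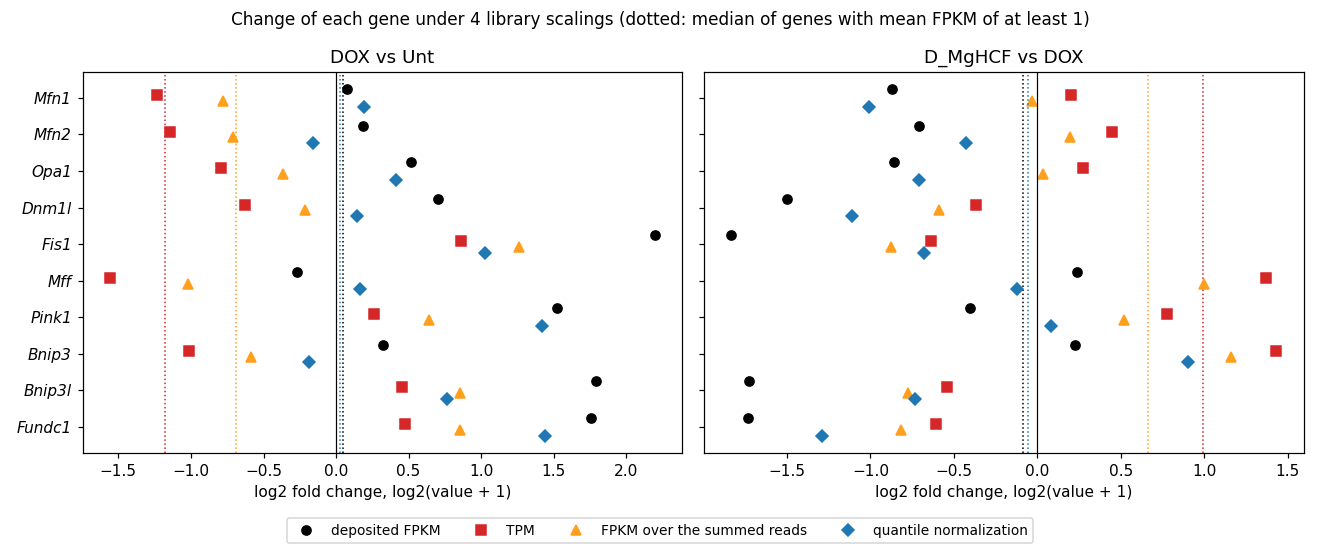
Log2 fold change of each gene, on log2(value + 1), in DOX against Unt (left) and D_MgHCF against DOX (right) under the deposited FPKM, TPM, FPKM over the summed reads and quantile normalization, with dotted lines at the median of the 11515 genes with a mean FPKM of at least 1. Fis1, Bnip3l and Fundc1 stay right of 0 on the left and left of 0 on the right with all 4 symbols, as Dnm1l does on the right, Pink1 stays right of 0 on the left, and the symbols of Mfn1, Mfn2, Opa1, Dnm1l, Mff and Bnip3 lie on both sides of 0 on the left.

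TPM and the summed reads shift the genes of a library together, so they come close once the median gene is subtracted, whereas quantile normalization does not. In DOX against Unt, Fis1 stood 2.04 log2 units above the median gene under TPM, 1.95 over the summed reads and 0.999 under quantile normalization. In the same order Fundc1 stood 1.66, 1.54 and 1.41 above it, Bnip3l 1.64, 1.55 and 0.736, and Pink1 1.44, 1.33 and 1.39. In D_MgHCF against DOX, Fis1 stood at −1.63, −1.54 and −0.62, Fundc1 at −1.60, −1.49 and −1.23, Bnip3l at −1.53, −1.44 and −0.68 and Dnm1l at −1.36, −1.25 and −1.06. Bnip3 stood 0.44, 0.49 and 0.96 above the median gene in that comparison.

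The rank of a gene within its own library does not depend on how libraries are scaled. Pink1 stood at percentiles 77.2 to 77.9 of the genes tested in the Unt libraries, 88.2 to 89.3 in DOX and 87.9 to 92.0 in D_MgHCF. Fundc1 stood at 80.4 to 82.7 in Unt, 91.2 to 91.8 in DOX and 76.6 to 86.7 in D_MgHCF. Bnip3 was at 89.2 to 92.2 in Unt and 88.6 to 89.6 in DOX, which overlap, and at 92.9 to 94.9 in D_MgHCF, above both. Mfn1 was at 67.2 to 75.9 in D_MgHCF against 79.2 to 81.2 in Unt and 81.6 to 81.7 in DOX, and Dnm1l at 80.8 to 84.2 against 87.6 to 91.5 and 90.4 to 90.8. Opa1 was at 82.1 to 83.0 in Unt, 85.5 to 86.5 in DOX and 79.8 to 80.6 in D_MgHCF. In the same order Fis1 was at 94.2 to 94.6, 97.2 to 97.5 and 92.9 to 96.75. Bnip3l was at 92.7 to 94.0, 96.0 to 96.4 and 91.6 to 95.1. Mfn2 was at 87.6 to 89.2, 87.0 to 87.8 and 79.5 to 88.8, and Mff at 69.2 to 70.9, 70.8 to 72.4 and 63.7 to 76.3.

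Ratios between related genes in the same library are likewise free of any factor that scales a whole library, as TPM and the summed reads do. They are not free of quantile normalization, under which no ratio was computed. The Bnip3 to Bnip3l ratio, between the paralogous receptors, was 0.800, 0.659 and 0.706 in Unt, 0.298, 0.252 and 0.224 in DOX, 0.353, 0.234 and 0.257 in D_DXZ and 0.709, 1.19 and 1.27 in D_MgHCF. The DOX ratios were below all those of Unt and D_MgHCF, by a mean log2 difference of −1.49 from Unt and with D_MgHCF 2.00 above DOX (two-sided exact permutation test, p = 0.1 for each, the smallest that 3 libraries against 3 allow). In D_MgHCF libraries 2 and 3 Bnip3 was thus above Bnip3l, and in the other 10 libraries below it.

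The Opa1 to Dnm1l ratio, of inner membrane fusion to fission dynamin, was 0.588 ± 0.084 in Unt, 0.518 ± 0.031 in DOX, 0.504 ± 0.0047 in D_DXZ and 0.820 ± 0.099 in D_MgHCF (mean ± SD, n = 3). D_MgHCF, with 0.761, 0.765 and 0.934, was above every other library, by 0.66 log2 units over DOX (exact permutation p = 0.1). DOX and Unt overlapped (log2 difference −0.18, exact permutation p = 0.3). The Mfn2 to Mfn1 ratio was 1.85 ± 0.27 in Unt, 1.99 ± 0.18 in DOX, 1.70 ± 0.070 in D_DXZ and 2.37 ± 0.29 in D_MgHCF, and the groups overlapped in both comparisons tested (exact permutation p = 0.5 for DOX against Unt and p = 0.2 for D_MgHCF against DOX). All D_MgHCF ratios, from 2.18 to 2.70, were above those of Unt (1.57 to 2.11) and D_DXZ (1.66 to 1.79), which was not tested. Of the 6 ratio tests, 3 reached the smallest possible p, which no design of this size can bring under the 0.05 threshold.

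**Figure D4:**
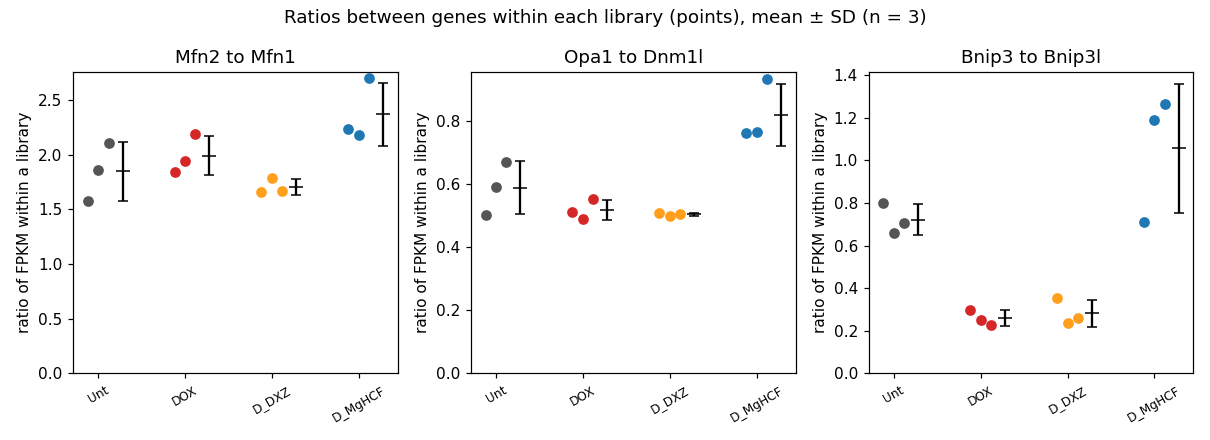
Ratio of the FPKM of 2 genes within each library (linear axes from 0), with points for libraries and black bars for the mean ± SD (n = 3). The Bnip3 to Bnip3l ratio is lowest in DOX and D_DXZ and highest in D_MgHCF, where 2 of 3 libraries exceed 1, and the Opa1 to Dnm1l ratio of all 3 D_MgHCF libraries is above those of the other groups.

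The 3 D_MgHCF libraries differed more among themselves than those of the other groups for most of these genes. The highest library was 2.35 times the lowest for Mff, 2.19 for Mfn2, 2.10 for Fis1 and 2.05 for Fundc1, against at most 1.36 times for any of the 10 genes within Unt, DOX or D_DXZ, while Opa1 (1.07), Dnm1l (1.22) and Bnip3 (1.25) stayed within that. Library 3 was the lowest of the group for Dnm1l, Fis1, Bnip3l and Fundc1, the highest for Mfn1, Mfn2, Opa1 and Mff, and in the middle for Pink1 and Bnip3. It also had the smallest mitochondrial read share of the group, 1.76% against 2.91% and 3.16%, and the part of this in the results was not tested. Without this library 7 of the 10 genes were called in D_MgHCF against Unt in place of 5, Fis1 being added as higher and Mfn2 as lower.

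Gene length moved with the change, and its part in the results was not tested. With the genes of a mean FPKM of at least 1 split by length into 10 bins of like size, the median log2 fold change in DOX against Unt was 0.86 in the bin of the shortest genes (up to 861 bases) and −0.46 in that of the longest (from 9322 bases), and that in D_MgHCF against DOX was −0.80 and 0.12. Fis1, with 1714 bases, was in bin 2, where the median in DOX was 0.57, and stood at the percentile 95.9 of its bin and 98.3 of all these genes. Fundc1 (2353 bases) stood at 91.7 and 92.8, Bnip3l (3859 bases) at 93.2 and 93.4 and Pink1 (2673 bases) at 87.3 and 88.4, so their places were nearly the same among genes of like length. Dnm1l (5203 bases) and Opa1 (7875 bases) stood higher in their own bins, at 76.7 and 76.6, than among all genes, at 68.4 and 63.7. For D_MgHCF against DOX, Fis1, Fundc1, Bnip3l and Dnm1l stood at percentiles from 8.77 to 9.99 of their bins.

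Across the 12 libraries the levels of Fis1, Bnip3l and Fundc1 followed each other closely (Pearson r of log2(FPKM + 1) 0.986 for Fis1 with Bnip3l, 0.988 for Fis1 with Fundc1 and 0.993 for Bnip3l with Fundc1), and Opa1 followed Dnm1l (0.966). These values are descriptions over points that share 4 group means and the library scaling. Bnip3 had r between −0.55 and 0.42 with each of the other 9 genes. Among the 11514 other genes with a mean FPKM of at least 1, those most like Fis1 were Swi5 (r = 0.9995) and Tagln2 (0.999), those most like Bnip3l were Pigk and Wls (0.998 and 0.997), and those most like Fundc1 were Echdc1 and Ndufs1 (both 0.997). For Pink1 they were Ece1 (0.993) and Diaph1 (0.989), for Dnm1l Htatsf1 (0.997) and Pola1 (0.995), for Opa1 Ipo11 and Sh3kbp1 (both 0.992), and for Mfn1 Gtf2e2 (0.985) and Xpo7 (0.984). Mfn2 with Top1mt (0.979) and Psme3 (0.963), Mff with Irak1bp1 (0.949) and Slc37a3 (0.947), and Bnip3 with Cited1 (0.927) and Ctnnal1 (0.901) had less similar neighbours.

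Of 52 further genes of the pathway, 51 were found and 49 tested. In DOX against Unt 21 of the 49 were higher and 17 lower, with a median log2 fold change of −0.03, which is near the shares of 36.7% and 33.3% among all genes with a mean FPKM of at least 1, but under TPM 2 were higher and 34 lower, and over the summed reads 7 and 25. In D_MgHCF against DOX 17 were higher and 20 lower, with a median of 0.02, beside shares of 33.5% and 40.1% among those genes, and under TPM 31 and 10. The group counts of the deposited scaling that follow are read against the same shares. No share of all genes called was computed under TPM or over the summed reads, so the counts under those scalings have no such background. The median of the genes with a mean FPKM of at least 1 moved there to −1.18 and −0.69 in DOX against Unt. In D_MgHCF against DOX it moved to 0.99 and 0.67. In D_DXZ against DOX none of the 49 was called by limma, and 9 had an unadjusted p under 0.05, of which 8 were lower. Over all genes tested 4.56% were higher and 4.97% lower at that unadjusted threshold. This share was not computed for the genes with a mean FPKM of at least 1. Their median log2 fold change was −0.079 as deposited and 0.072 under TPM. Against Unt, D_DXZ had 16 higher and 18 lower (under TPM 1 and 37) and D_MgHCF 7 and 12 (under TPM 5 and 15). Among genes with a mean FPKM of at least 1 the deposited shares were 31.9% and 31.5% for D_DXZ and 22.5% and 29% for D_MgHCF.

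The inner membrane proteases, some of which process Opa1, come first, listed with genes of the MICOS complex, which holds the cristae junctions. Of 13 genes 10 were higher in DOX than in Unt and none lower (median log2 fold change 0.87), although under TPM none was higher and 7 were lower. The 3 not called were the proteases Oma1 (−0.28, adjusted p = 0.0758), Yme1l1 (−0.07, adjusted p = 0.83) and Afg3l2 (−0.06, adjusted p = 0.85). Oma1 was called lower in D_DXZ than in Unt (−0.78, adjusted p = 0.000396). The median of the group under TPM was −0.38, above the −1.18 of all genes with a mean FPKM of at least 1. Spg7, a subunit of the m-AAA protease, rose from 14.9 to 58.6 FPKM (log2 fold change 1.90, adjusted p = 0.000719), and Immt (mitofilin), the core of MICOS, from 13.8 to 36.1 (1.31, adjusted p = 0.000105), with both at adjusted p above 0.05 under TPM (0.0859 and 1). In D_MgHCF against DOX 10 of the 13 were lower and none higher (median −1.43), and under TPM 7 were lower and 3 higher. There the group median was −0.25, below the 0.99 of all genes with a mean FPKM of at least 1. Immt fell to 5.58 FPKM (−2.51, adjusted p = 3.57e-06) and Spg7 to 12.9 (−2.23, adjusted p = 0.000224), and both falls were called under TPM, at −1.45 and −1.10.

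Of the partners of outer membrane fusion and transport, 5 of 8 were lower and 1 higher in DOX and 4 were higher and 1 lower in D_MgHCF against DOX, and under TPM 5 lower in the first and 7 higher in the second. Rhot1 (Miro1), which couples mitochondria to motors, fell in DOX from 10.7 to 3.63 FPKM (−1.35, adjusted p = 0.000315), and the motor adaptor Trak2 fell from 11.2 to 4.84 (−1.07, adjusted p = 7.28e-05). Rhot2, the relative of Rhot1, rose in DOX by 1.08 (adjusted p = 1.73e-05), but changed by −0.16 (adjusted p = 0.37) under TPM. In D_MgHCF, Trak2 was 1.53 (adjusted p = 8.94e-06) and Miga2, a mitoguardin, 1.00 (adjusted p = 0.000274) above DOX, and Rhot2 fell by 0.60 (adjusted p = 0.000449) but was 0.54 above DOX under TPM.

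Of the 10 fission partners tested, 5 were higher and 5 lower in DOX, and under TPM none and 8. Akap1, an anchor of protein kinase A on the outer membrane, fell from 16.4 to 3.58 FPKM (−1.95, adjusted p = 0.000116), and Mief1 (MiD51), a receptor for Drp1, from 5.15 to 1.32 (−1.42, adjusted p = 0.000231). The formin Inf2 rose by 1.23 (adjusted p = 0.00127) and Mtfr1l by 0.99 (adjusted p = 3.34e-05), which under TPM were −0.084 and −0.31. Compared with DOX, 5 were higher and 4 lower in D_MgHCF (under TPM 7 and none), with Mtfr2 at 1.81 (adjusted p = 0.000212) and Akap1 at 1.75 (adjusted p = 0.000203). Mtfr1 and Inf2 were lower, at −1.12 (adjusted p = 5.82e-06) and −1.14 (adjusted p = 0.00181), though under TPM at 0.057 and 0.026.

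In the ubiquitin pathway of mitophagy, parkin itself (Park2 in the table, named after its values were seen) was at or near 0 in every library, at most 0.024 FPKM. Of the 8 genes tested, 3 were higher and 3 lower in DOX (under TPM 1 and 5). Vcp, the ATPase that extracts ubiquitinated outer membrane proteins, rose from 86.3 to 308 FPKM (1.82, adjusted p = 1.4e-05), and Tomm7, which stabilises Pink1 on the import channel, from 24.3 to 84.8 (1.76, adjusted p = 0.000165, and 0.43 with adjusted p = 0.0877 under TPM). The ligase Mul1 fell from 6.45 to 1.44 (−1.63, adjusted p = 0.000125) and the deubiquitinase Usp30 from 6.27 to 2.25 (−1.16, adjusted p = 0.000273). Against DOX, 3 of the 8 genes were higher and 4 lower in D_MgHCF (under TPM 5 and 2), and this comparison shares the DOX libraries. The changes were −2.26 for Vcp (adjusted p = 3.92e-06), −1.73 for Tomm7 (adjusted p = 0.000168), 1.70 for Mul1 (adjusted p = 8.43e-05) and 0.62 for Usp30 (adjusted p = 0.011).

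Among the 10 other receptors, adaptors and kinases tested, 2 were higher and 4 lower in DOX (under TPM 1 and 9). The receptor Fkbp8 rose from 40.8 to 135 FPKM (1.70, adjusted p = 2.36e-05), the adaptor Tax1bp1 by 0.50 (adjusted p = 0.00954, but −0.79 under TPM), and Ambra1 and the kinase Tbk1 fell by 1.70 (adjusted p = 7.36e-05) and 1.17 (adjusted p = 0.000556) on the log2 scale. Compared with DOX, 5 were higher and 1 lower in D_MgHCF (under TPM 9 and 1). Ulk1, the kinase that starts autophagosome formation, was at 18.8 against 6.14 FPKM (1.49, adjusted p = 1.81e-05), the adaptor Optn at 9.19 against 3.29 (1.22, adjusted p = 0.000573), and Fkbp8 fell to 39.1 (−1.78, adjusted p = 1.53e-05).

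**Figure D5:**
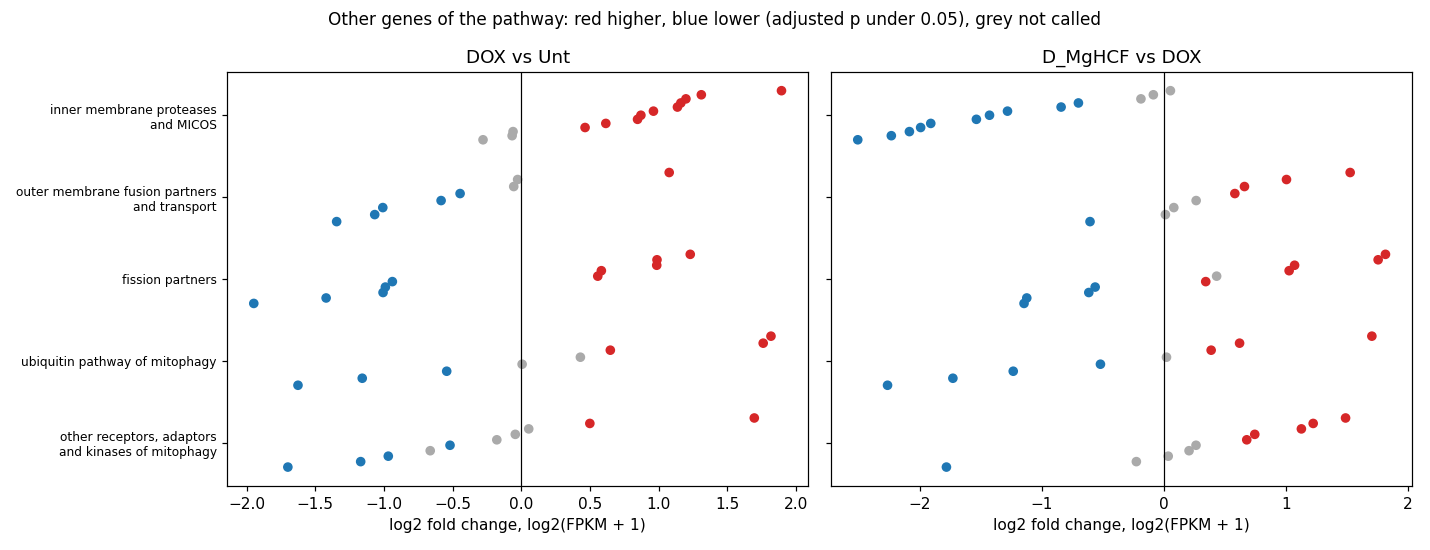
Log2 fold change of each tested gene of the 5 pathway groups on log2(FPKM + 1) in the deposited scaling, with a point per gene. The inner membrane group has 10 red points and no blue in DOX against Unt and 10 blue points and no red in D_MgHCF against DOX, while the other groups are divided. Under TPM no gene of that group was called higher in DOX and 7 were lower. The group median was then −0.38, and that of all genes with a mean FPKM of at least 1 was −1.18.

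Some reads of these genes could have been split with near-identical stretches of other genes. A search of all annotated mouse transcripts for matches of at least 95% identity over at least 150 bases found such stretches in other genes for 5 of the 10 genes. A match of this kind need not be a copy of the whole gene. Bnip3 matched 5 other genes, none with more than 9 reads in any library. Bnip3l matched its processed copy Bnip3l-ps, which had up to 326 reads, against at least 2159 for Bnip3l. Mfn1 matched 12 genes over 150 to 176 bases at no more than 96.4% identity, of which Slc3a2 had the most reads, up to 14960, and Dnm1l and Mff matched 1 gene each over 196 bases. Genes that overlap Mfn2, Dnm1l, Mff, Pink1 or Bnip3 on the genome had at most 43 reads in any library, and the counting is not stated to use strand.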

How the data were processed

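The data are mRNA-seq of 12 libraries of H9c2 cells. The authors deposited FPKM of 54345 genes with mouse Ensembl identifiers and GRCm38 coordinates. The submitters' processing notes name HISAT2 2.0.5 and GRCm38 (mm10). The counting program and the annotation release are not given in the sources used here. The study describes the cells as rat, while the organism label and the genes are mouse, and the doses in the sequenced cells are not stated. No column of other samples was present.

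Multiplying FPKM by length and dividing by 1 constant per library returned read numbers, whole to within 0.01 for 100% of values, and their scaling equalled the median-ratio size factors. FPKM are not counts, so limma 3.58.1 (R 4.3.3) was run on log2(FPKM + 1) in 1 fit over the 4 groups with a trended prior and no covariate. The study's tests based on the negative binomial distribution were not repeated, and voom on the recovered reads was the alternative closest to a count test. In 6 comparisons, 25044 genes detected in 3 or more libraries were tested, with Benjamini-Hochberg adjustment over all of them. Fold changes on this scale are smaller than true ones for low genes. The fit was tested on simulated data. Ratios were tested with two-sided exact permutation tests. TPM, summed reads, quantile normalization, voom, other pseudocounts and filters, a replicate block and leaving out each library were alternatives. BLAST 2.17.0 was used for near-identical stretches and RefSeq promoters (GRCm38.p6) for motifs.

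The genes and lists were chosen with earlier results of these data known. Named were all 10 genes, in each pathway group up to 2 genes of the largest rise and 2 of the largest fall with an adjusted p under 0.05 whose higher group averaged 1 FPKM or more, in DOX against Unt and D_MgHCF against DOX, and the 2 genes most correlated with each. Parkin, Oma1, Yme1l1, Afg3l2 and the individual markers were named after their values were seen.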

Additional observations from a re-analysis of the deposited data

How the results depend on the processing

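The total number of the 10 genes called, in either direction, stayed within 1.5 times under every alternative but a minimum change of 2-fold. This total does not register calls that turned direction or moved to other genes, as several did under TPM and over the summed reads. The 2-fold minimum left 4 of 7 in DOX against Unt, 1 of 5 in D_MgHCF against Unt, 4 of 7 in D_MgHCF against DOX and 4 of 7 in D_MgHCF against D_DXZ. Of the 49 pathway genes, that minimum left 20 of 38 in DOX against Unt, 13 of 34 in D_DXZ against Unt, 6 of 19 in D_MgHCF against Unt and 24 of 37 in D_MgHCF against DOX, and a fit of the 2 groups alone left 10 of 19 in D_MgHCF against Unt. Leaving out 1 library gave 6 to 7 of the 10 genes in DOX against Unt, 6 to 7 in D_DXZ against Unt, 4 to 7 in D_MgHCF against Unt, 0 in D_DXZ against DOX, 6 to 8 in D_MgHCF against DOX and 7 to 8 in D_MgHCF against D_DXZ, and for the pathway 35 to 41, 29 to 39, 13 to 26 and 34 to 38. None of the 48 ratio values under the alternatives changed direction. Those alternatives were leaving out a library, a pseudocount of 1 and a replicate block, and the block could not differ, as it gives the same mean difference. TPM and the summed reads cancel in a ratio and were not among them. Quantile normalization, which also turned genes, does not cancel, and no ratio was computed under it. In DOX against Unt it gave 0.42 for Opa1 and 0.15 for Dnm1l, and −0.16 for Mfn2 and 0.19 for Mfn1. The order within each of these pairs is opposite to the log2 differences of −0.18 and 0.12 in the 2 ratios.

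Directions turned under the scaling alone, and the cause was not tested. In DOX against Unt, TPM and the summed reads gave −1.24 and −0.78 for Mfn1, −1.15 and −0.71 for Mfn2, −0.79 and −0.37 for Opa1, −0.63 and −0.21 for Dnm1l and −1.01 and −0.59 for Bnip3, with −0.19 for Bnip3 under quantile normalization. In D_DXZ against Unt they gave −1.09 and −0.64 for Mfn1, −0.75 and −0.32 for Opa1, −0.55 and −0.13 for Dnm1l and −1.04 and −0.61 for Bnip3. In D_MgHCF against DOX they gave 0.45 and 0.20 for Mfn2, 0.28 and 0.033 for Opa1, 0.78 and 0.52 for Pink1 and, for TPM alone, 0.20 for Mfn1. Against D_DXZ they gave 0.90 and 0.63 for Pink1, 0.52 and 0.25 for Mfn2 and, for TPM alone, 0.057 for Mfn1 and 0.23 for Opa1. Of the pathway genes in DOX against Unt, TPM gave −0.16 for Rhot2, −0.084 for Inf2, −0.31 for Mtfr1l and −0.79 for Tax1bp1, with −0.37 for Tax1bp1 over the summed reads. In D_MgHCF against DOX it gave 0.54 for Rhot2 (0.28 over the summed reads), 0.026 for Inf2 and 0.057 for Mtfr1.

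With a replicate block 6, 6, 6, 0, 7 and 8 of the 10 genes were called in the 6 comparisons, in the order DOX, D_DXZ and D_MgHCF against Unt, D_DXZ and D_MgHCF against DOX, and D_MgHCF against D_DXZ. The block also called Mfn2 lower in D_MgHCF than in Unt (adjusted p = 0.0321) and than in D_DXZ (0.038) and lost Bnip3 in DOX against Unt (0.0771). Same-numbered libraries correlated between −0.31 and 0.31 in their deviations, over 0.1 in 2 of 18 pairs, and differently numbered ones in 5 of 36, so the numbers were not taken to pair the libraries. Those 2 pairs were both of DOX with D_DXZ, at 0.31 for number 1 and 0.22 for number 3, with 0.033 for number 2. Differently numbered libraries of DOX and D_DXZ lay between −0.31 and 0.15. A link by number between these groups alone was not tested. The differences of Mff from Unt were called in a fit of the 2 groups alone (adjusted p = 0.0173 for DOX and 0.0299 for D_DXZ) and not in the fit of all 4 groups.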
